A study of Danio rerio with 3 samples.

Results

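Zebrafish (Danio rerio) scales kept with 3-hydroxybenzo[c]phenanthrene (3-OHBcP) were compared with control scales, with 1 array on each side. The comparison takes every probe set that is not a control probe set and carries exactly 1 gene symbol, which gave 10795 of the 15617 probe sets on the array and 8793 genes. Each gene was read by its brightest probe set, and 5248 genes reached the level filter, a mean log2 signal of 5.35 that is the median over the probe sets of the array without controls. Lists and counts below refer to these genes unless stated otherwise. The study held 3 groups of 1 array each: scales in L-15 medium with 1 nM 3-OHBcP, scales with 1 nM of the parent compound benzo[c]phenanthrene (BcP), and control scales, all for 6 h at 15 °C. 3-OHBcP is BcP carrying a hydroxyl group on carbon 3. The sources used here do not say whether control scales received a solvent, or from how many fish a sample was taken. With a single array per group no replicate spread exists, so every difference below describes a pair of arrays and carries no error, interval or test.

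A fish scale is a plate of collagen-rich bone in the skin, made by osteoblasts, remodelled by osteoclasts and covered by epidermis. Polycyclic aromatic hydrocarbons such as BcP bind the aryl hydrocarbon receptor, a ligand-activated transcription factor whose best known targets are cytochrome P450 genes of the Cyp1 family. Hydroxylated forms of such compounds arise in metabolism, and some of them bind estrogen receptors. The study's title asks how these compounds act on the bone cells of scales.

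The 3-OHBcP and control arrays had median log2 signals of 5.35 and 5.32. Keratinocyte and bone matrix markers of a scale were well above the filter, with krt5 at 12.82 on each of these arrays and col1a2 at 12.70 with 3-OHBcP and 12.12 in control. The summed linear signal of 8 keratinocyte markers was 44355 with 3-OHBcP and 44456 in control. Markers of pigment cells were all under the filter level, and 1 of 6 markers of skeletal muscle passed it. The 5′ GAPDH control probe set read 8.95 with 3-OHBcP and 8.50 in control, a difference of 0.44, while the 3′ one differed by 0.02. Some other control probe sets were also higher, such as pAsRed2 at 6.03 with 3-OHBcP and 5.70 in control. TagF read 4.97 with 3-OHBcP and 4.47 in control, while others such as TagA were equal. The median difference was 0.08 over 18 hybridisation spike-in probe sets and 0 over 27 poly-A spike-in probe sets. The part of these differences in the results below, also for genes near the filter level, was not tested. In whole tissue, fewer cells of a type and less RNA per cell cannot be told apart.

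Differences were small. Of the 5248 genes, 1335 (25.4%) were higher with 3-OHBcP, 2201 (41.9%) were lower and 1712 (32.6%) had exactly the same deposited value. The median difference was 0, the mean was -0.03 and the SD across genes was 0.13 on the log2 scale. At 1.5-fold, 5 genes (0.0953%) were higher and 6 (0.114%) were lower, and no gene was 2-fold apart. The second line used was a log2 difference of 0.32, a linear ratio of 5 to 4. Past it, 53 genes (1.01%) were higher and 155 (2.95%) were lower, and these percentages are the background for every list below. Quantile normalization gave 60 higher and 105 lower past 0.32, and centring each array on its median gave 38 and 199. At 1.5-fold quantile normalization gave 5 higher and 3 lower genes, and centring gave 4 higher and 8 lower. Values that were equal as deposited are no longer equal after centring, which moves the median of all genes to -0.03, and counts of higher, lower and equal members below are on the deposited scale.

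The surplus of lower genes depended on signal level. The kept genes were split by level into 4 groups of 1312. In the faintest group 26 genes were higher by at least 0.32 and 45 were lower. The next group held 5 higher and 46 lower genes, and the one above it 6 and 45. In the brightest group, with mean log2 signal of 8.53 or more, the counts were 16 and 19. The 3545 genes under the filter went the other way, with 122 higher and 33 lower. Of the 53 higher genes, 12 had a control signal under the filter level and passed it by their mean over the 3 arrays, while 8 of the 155 lower genes had a 3-OHBcP signal under it. Genes read by probe sets marked A in their names, the mark for orientation, counted 18 higher and 89 lower among 2572. Those read by probe sets marked S counted 35 and 66 among 2620.

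**Figure D1:**
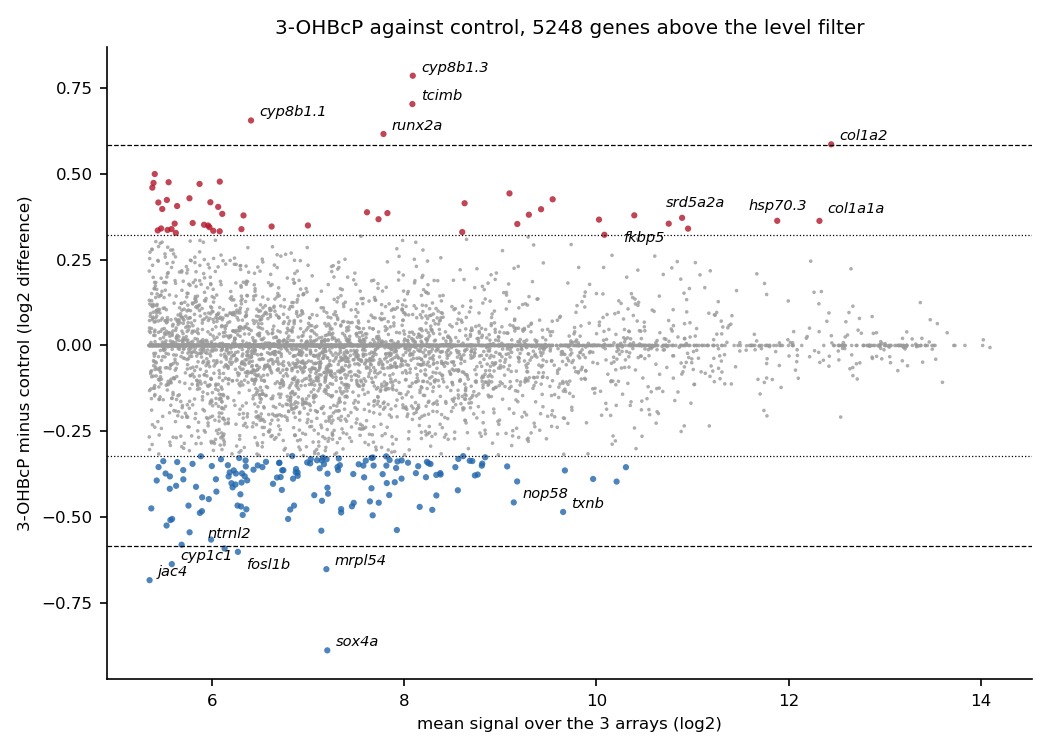
Log2 difference of 3-OHBcP minus control (vertical axis) against mean log2 signal over the 3 arrays (horizontal axis) for 5248 genes, 1 point per gene. Red points are higher by at least 0.32 (53) and blue points lower by at least 0.32 (155); dotted lines mark a difference of 0.32 and dashed lines 1.5-fold, and the dense line at 0 holds the 1712 genes with equal values.

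The highest gene was cyp8b1.3, a relative of the sterol 12-alpha-hydroxylase that acts in bile acid synthesis. Its log2 signal was 9.04 with 3-OHBcP, 6.98 with BcP and 8.25 in control, which is 1.72-fold above control. Its paralog cyp8b1.1 read 7.05 with 3-OHBcP, 5.78 with BcP and 6.39 in control, a difference of 0.66 from control. For both paralogs the BcP array was the lowest of the 3 and the 3-OHBcP array the highest. Their probe sets carry the same cluster number, so the values may come in part from shared transcripts, and the second cyp8b1.1 probe set, at 2.32 with 3-OHBcP and 2.31 in control, was far under the filter. Next to them stood tcimb, one of a pair of zebrafish genes for the transcriptional and immune response regulator, at 8.32 with 3-OHBcP, 8.33 with BcP and 7.61 in control. Here the arrays of both compounds were nearly equal and above control.

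At the other end, sox4a, a Sox transcription factor of progenitor cells, read 6.84 with 3-OHBcP, 7.04 with BcP and 7.73 in control, which is 1.85-fold below control. The gene for the mitochondrial ribosomal protein mrpl54 read 6.79 with 3-OHBcP, 7.35 with BcP and 7.44 in control, so that the BcP array was close to control and the 3-OHBcP array was not. The AP-1 subunit gene fosl1b read 6.13 with 3-OHBcP, 5.95 with BcP and 6.73 in control. Some of the lowest genes lay near the filter level: jac4 read 4.99 with 3-OHBcP and 5.68 in control, and prxl2b read 5.402 with 3-OHBcP and 5.983 in control. The gene nearest inside the 1.5-fold line was col1a2 at 0.59, and prxl2b at -0.58 was nearest outside it. At the 0.32 line neu3.2 (-0.322) lay just inside and myl6 (-0.321) just outside.

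**Figure D2:**
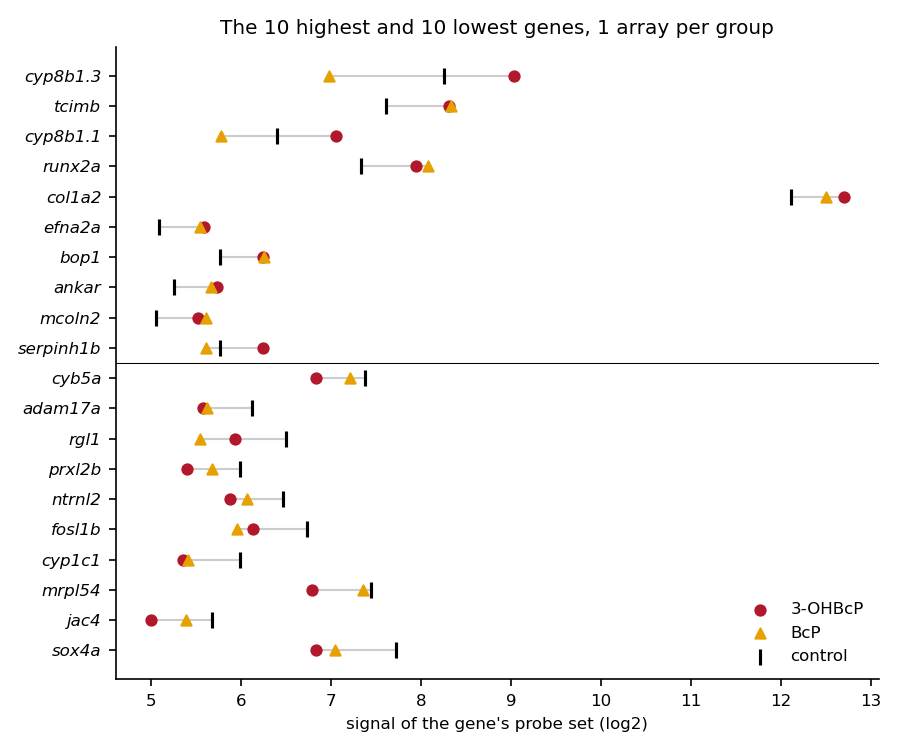
Log2 signal of the 10 highest genes (above the line) and 10 lowest genes (below it) by 3-OHBcP minus control, on the 3-OHBcP array (red circles), the BcP array (orange triangles) and the control array (black ticks), 1 array each. The BcP value lies on the other side of control from the 3-OHBcP value for cyp8b1.3, cyp8b1.1 and serpinh1b.

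Genes with several probe sets gave the closest thing to a second reading, although probe sets of a gene share the array and the RNA. There were 638 genes with at least 2 probe sets above the filter. Both of the brightest pair differed from 0 in 312 genes, with the same sign in 190 and the opposite sign in 122. Across the 638 genes the differences of the brightest pair correlated at r = 0.30, a description of these arrays in which the points share 2 samples. Of 31 genes whose brightest probe set was at least 0.32 apart, the next probe set had the same sign in 20, was equal in 7 and had the opposite sign in 4, and it was at least 0.32 apart the same way in 9. No gene had probe sets at least 0.32 apart in opposite directions. Of the genes at least 0.32 apart, 34 of the 53 higher and 128 of the 155 lower were read by 1 probe set, and for these no such reading exists.

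Every probe set above the filter was higher by at least 0.32 in 5 genes and lower by at least 0.32 in 3. The higher ones were col1a1a, cyp51, hsp90aa1.2, srd5a2a and tcima, of which col1a1a counts here with a probe set that shares its source number with one named runx2a. The steroid 5-alpha-reductase gene srd5a2a read 11.14 with 3-OHBcP, 10.76 with BcP and 10.77 in control, and its other probe set read 10.99 with 3-OHBcP, 10.49 with BcP and 10.60 in control. These differences from control, 0.37 and 0.39, were the most alike of the higher genes, and the BcP array stayed within 0.12 of control. The pair of tcima probe sets were higher than control by 0.35 and 0.57, next to the 0.70 of its paralog tcimb.

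The lower ones were ggps1, rer1 and im:6907928. The gene ggps1, for the synthase of geranylgeranyl diphosphate from the isoprenoid pathway, differed by -0.38 and -0.39, and its remaining probe set, under the filter, was equal on both arrays. The gene rer1 encodes a receptor that returns proteins from the Golgi to the endoplasmic reticulum, and its probe sets read 8.15 and 6.99 with 3-OHBcP, 8.18 and 7.10 with BcP, and 8.50 and 7.48 in control. The probe sets of im:6907928, which has no gene name in the annotation, differed by -0.34 and -0.47. After quantile normalization 1 of these 3 lower genes still had every probe set at least 0.32 apart.

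Choosing the brightest probe set hid some genes, here picked after their values were seen. In 46 genes a dimmer probe set above the filter was at least 0.32 apart while the brightest was not, higher in 19 and lower in 27. Among the lower ones, rca2.1 differed by -0.68 and hspa9 by -0.49, against -0.07 and -0.20 on their brightest probe sets. Among the higher ones was ppp1r15a, known as Gadd34, which directs a phosphatase to the translation factor eIF2-alpha during stress. All 4 of its probe sets were higher with 3-OHBcP, by 0.23 for the brightest and by 0.47, 0.60 and 0.31 for the others. For fosab, the zebrafish c-Fos gene, the brightest probe sets differed by 0.01 and 0.00, and the other 2 by 0.48 and 0.45. Those equal probe sets are marked A and those apart are marked S, and which of them reads the fosab transcript was not tested. Other genes read less alike: mpx, the neutrophil myeloperoxidase gene, differed by -0.35 and 0.27, the chromatin remodeller gene chd7 by -0.35 and 0.14, and the transcription factor subunit gene nfya by 0.42 and -0.10. No direction can be given for these 3 genes.

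**Figure D3:**
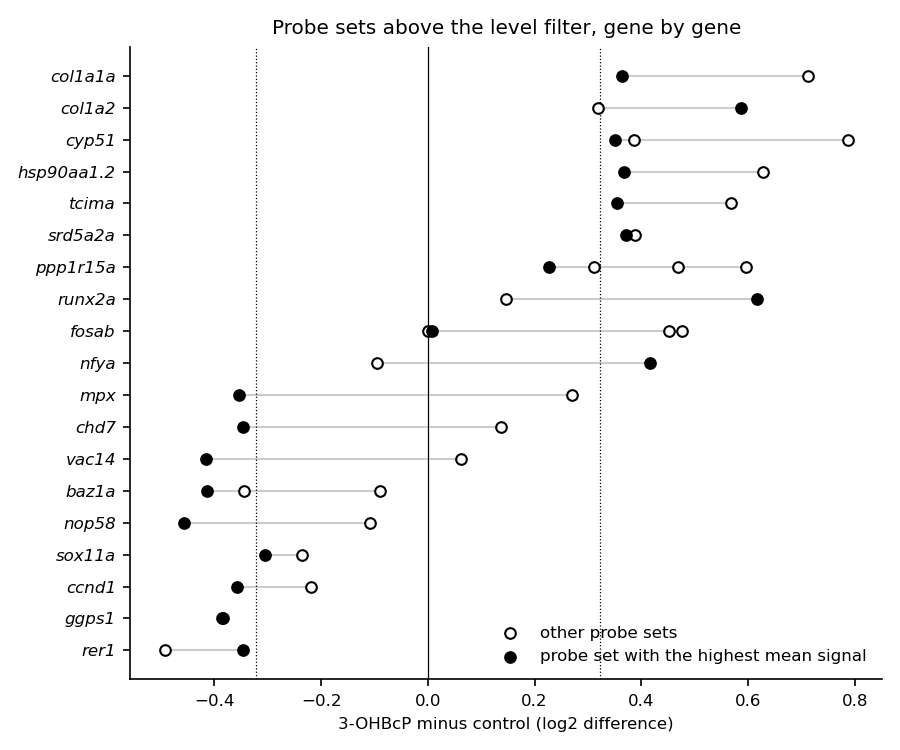
Log2 difference of 3-OHBcP minus control for each probe set above the level filter of 19 genes; filled circles are the probe set with the highest mean signal, open circles the others, and dotted lines mark a difference of 0.32. Probe sets of col1a1a, cyp51, hsp90aa1.2, tcima and srd5a2a lie right of the 0.32 line, those of ggps1 and rer1 left of it, and those of nfya, mpx, chd7 and vac14 on both sides of 0.

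Collagen I genes were higher with 3-OHBcP in all 4 probe sets that carry their names, 1 of which shares its source number with a probe set named runx2a. The gene col1a1a, for the alpha-1 chain, read 12.47 with 3-OHBcP, 12.38 with BcP and 12.11 in control on its brightest probe set, a difference from control of 0.36. The other read 11.95 with 3-OHBcP, 11.76 with BcP and 11.23 in control, a difference of 0.71. The gene col1a2, for the alpha-2 chain, was higher by 0.59 and 0.32. Of the other fibrillar chains, col5a2a differed by 0.06 and col11a1a was equal on the 3 arrays. The type X genes, of skeletal matrix, read 12.70 with 3-OHBcP and 12.48 in control for col10a1b and 11.78 on both arrays for col10a1a.

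Genes that fold and process collagen were mostly on the same side. Of 15 kept members, 11 were higher and 3 lower, with a median of 0.07 against 0 over all genes, and 1 was higher by at least 0.32. That gene was serpinh1b, for the collagen chaperone Hsp47, at 6.24 with 3-OHBcP, 5.61 with BcP and 5.77 in control. Behind it came fkbp10b (0.27), a prolyl isomerase of collagen folding, and tmem38b (0.24), an ion channel of the endoplasmic reticulum. The list median lay between 0.04 and 0.12 in every alternative setting.

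The sum over bone markers differed mainly through collagen. The summed linear signal of the 10 bone markers measured was 25541 with 3-OHBcP and 20869 in control. Without the 4 collagen chains it was 3038 with 3-OHBcP and 2809 in control. Most of this smaller sum is sparc, at 11.30 with 3-OHBcP and 11.17 in control, so its difference is mainly that of sparc. The mineralization enzyme gene alpl read 5.68 with 3-OHBcP and 5.62 in control, spp1 (osteopontin) read 8.06 on both arrays, and sp7, a transcription factor that defines osteoblasts, was under the filter at 4.97 with 3-OHBcP and 4.78 in control. The osteoblast transcription factor gene runx2b, also under the filter, read 5.28 with 3-OHBcP, 5.32 with BcP and 4.93 in control, a difference of 0.35, and its other probe set differed by 0.05. The probe set named runx2a that was higher by 0.62 has the same source number as the second col1a1a probe set, while the other runx2a probe set differed by 0.15. Neither the 0.62 for runx2a nor the 0.71 for col1a1a is therefore a secure reading of its gene. Of 19 genes of the osteoblast and bone matrix list 10 were higher (52.6%, against 25.4% of all genes) and 3 lower. Its median was 0.01, and -0.01 after centring each array on its median. In that list runx2a alone was at least 0.32 apart. Osteoclast genes leaned down by little, with 8 of 13 lower (61.5%, against 41.9% of all genes), 2 higher and none at least 0.32 apart. Among them ctsk, the bone-degrading cathepsin, was equal at 10.15, acp5a differed by 0.01 and mmp9 by -0.10, and the receptor gene csf1ra was equal at 4.47, under the filter.

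Sterol genes had members well above and well below control. Of 14 kept members of the sterol synthesis and uptake list 9 were higher and 4 lower, with a median of 0.10 against 0 over all genes. Past 0.32, 3 were higher (21.4%) and 2 lower (14.3%). The higher ones make cholesterol: acat2, for the thiolase at the start of the pathway, read 8.996 with 3-OHBcP, 8.312 with BcP and 8.581 in control, and msmo1, for the sterol C4-methyl oxidase, read 9.56 with 3-OHBcP, 9.15 with BcP and 9.18 in control. The lanosterol demethylase gene cyp51 was higher by 0.35, 0.79 and 0.39 in its kept probe sets, and by 0.06 in another under the filter.

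The lower ones were ggps1 and mylipa, followed by npc1. Of these mylipa read 6.496 with 3-OHBcP, 6.660 with BcP and 6.881 in control. It encodes a ubiquitin ligase that in mammals degrades the LDL receptor. The gene npc1, for the lysosomal cholesterol exporter, differed by -0.25. In the list of bile acid and oxysterol genes, nr1h3, for the oxysterol-sensing liver X receptor, read 6.13 with 3-OHBcP and 6.46 on both the BcP and control arrays. Fatty acid and triglyceride genes showed no such spread, with 7 of 15 higher, 6 lower and none at least 0.32 apart.

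Genes of steroid signalling were lower less often than all genes, in a list of 8 members. In the estrogen and steroid list 5 of 8 kept members (62.5%) were higher and 1 (12.5%) lower, against 25.4% and 41.9% of all genes. The list median of 0.08 ranged from 0.03 to 0.11 over the alternative settings, and 1 member was higher by at least 0.32. The glucocorticoid-induced chaperone gene fkbp5 read 11.17 with 3-OHBcP, 10.28 with BcP and 10.81 in control, and the transcription factor gene klf9 read 10.84 with 3-OHBcP, 10.39 with BcP and 10.58 in control. In both, the 3-OHBcP array was the highest and the BcP array the lowest. The glucocorticoid-induced gene tsc22d3 read 10.36 with 3-OHBcP, 10.07 with BcP and 10.36 in control, so that it was equal with 3-OHBcP and in control. The glucocorticoid receptor gene nr3c1 was equal at 9.48 with 3-OHBcP and in control on its brightest probe set, and higher by 0.15 and 0.18 on its other kept ones. Of the estrogen receptor genes esr2a passed the filter, at 5.76 with 3-OHBcP, 5.94 with BcP and 5.58 in control. Under it, esr2b read 4.77 with 3-OHBcP, 4.58 with BcP and 4.72 in control, and esr1 read 2.76 with 3-OHBcP and in control. The retinoic acid hydroxylase gene cyp26a1 and the vitamin D hydroxylase gene cyp24a1 were higher than control by 0.37 and 0.25.

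Chaperone genes did not share a direction. Of 47 kept members 12 (25.5%) were higher and 22 (46.8%) lower, near the 25.4% and 41.9% of all genes. Past 0.32, 3 (6.38%) were higher and 1 (2.13%) lower. The inducible cytosolic chaperone hsp90aa1.2 read 10.57 with 3-OHBcP, 9.31 with BcP and 10.20 in control. Its other probe set read 8.96 with 3-OHBcP, 7.79 with BcP and 8.34 in control. The Hsp70 gene hsp70.3 read 12.29 with 3-OHBcP, 11.43 with BcP and 11.92 in control. Its 1 probe set is of the kind with several possible targets, so the value may come in part from other transcripts. Both hsp90aa1.2 and hsp70.3 had their lowest value with BcP. In contrast hspb8, a small heat shock protein gene, was lower at 5.83 with 3-OHBcP against 6.27 in control, and the Hsp40 gene dnaja1 differed by -0.30. In the unfolded protein response list 9 of 32 members were higher and 15 lower, and none was at least 0.32 apart on its brightest probe set. Its members ranged from hyou1 at -0.19 to the stress transcription factor gene atf4a at 0.24, with ppp1r15a at 0.23. Outside the list, and named after their values were seen, the paralogs atf5a and atf5b differed by -0.48 and -0.42.

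Genes of the aryl hydrocarbon receptor pathway showed no common direction: 3 of 7 were higher and 4 lower. The induced P450 gene cyp1a read 7.31 with 3-OHBcP, 6.62 with BcP and 7.68 in control, though its probe set shares a cluster number with those of mpx. The related cyp1c1 read 5.35 with 3-OHBcP, 5.41 with BcP and 5.99 in control, while its other probe sets, under the filter, differed from control by 0.19 and 0.00. The receptor gene ahr2 was near control (-0.05) and the quinone reductase gene nqo1 differed by -0.20. Of the higher members, the receptor partner arnt2 differed by 0.43, with a second probe set equal and under the filter. The receptor target tiparp, for a member of the poly-ADP-ribose polymerase family that in mammals represses the receptor, read 10.06 with 3-OHBcP, 9.73 with BcP and 9.99 in control. The cell cycle inhibitor gene cdkn1bb differed by 0.02 on its brightest probe set and by -0.22 on the other.

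Antioxidant and conjugating genes were lower somewhat more often than the 41.9% of all genes. Of 31 oxidative stress and glutathione genes 17 (54.8%) were lower and 8 higher, with a median of -0.04 that ranged from -0.07 to -0.0047 over the alternative settings, and 2 (6.45%) were lower by at least 0.32. These were the thioredoxin gene txnb, at 9.43 with 3-OHBcP, 9.61 with BcP and 9.92 in control, and the glutathione reductase gene gsr, at 6.94 with 3-OHBcP, 6.87 with BcP and 7.28 in control. Among 55 genes of other P450s, conjugating enzymes and ABC transporters, 29 (52.7%) were lower and 11 higher, although the list median of -0.02 became 0.00 after quantile normalization. The gene cyb5a, for an electron donor of some P450s, read 6.83 with 3-OHBcP, 7.21 with BcP and 7.37 in control.

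Genes for building ribosomes included some of the lower genes, and genes of the cytosolic ribosome itself did not. Of 66 genes of ribosome biogenesis and the nucleolus 33 were lower and 11 higher, with a median of -0.01 (0.00 after quantile normalization), and 6 (9.09%) were lower by at least 0.32. The box C/D snoRNP gene nop58 read 8.94 with 3-OHBcP, 9.09 with BcP and 9.39 in control on 1 probe set, and differed by -0.11 on the other. The large-subunit assembly factors nip7 and noc2l differed by -0.45 and -0.41, with BcP values above control (0.14 and 0.04). The other 3, named after their values were seen, were nolc1 (-0.36), nol7 (-0.35) and utp11 (-0.33). Against this, bop1 was higher by 0.48 on its brightest probe set and by 0.00, 0.00 and 0.14 on probe sets under the filter. None of 72 cytosolic ribosomal protein genes was at least 0.32 apart, and the SD of their differences was 0.03, against 0.15 for the biogenesis list. Their median log2 signal was 13.02 in control, against 6.83 for the biogenesis list, and the part of signal level in this was not tested.

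Lists of protein turnover, splicing and mitochondria lay nearer the background. Of 98 proteasome and ubiquitin genes 48 were lower and 24 higher, and 4 (4.08%) were lower by at least 0.32 and none higher. The ubiquitin-conjugating enzyme gene ube2d1b read 7.58 with 3-OHBcP, 7.37 with BcP and 8.07 in control, and the proteasome lid gene psmd11b read 6.07 with 3-OHBcP, 6.19 with BcP and 6.54 in control. The activator gene psme3 differed by -0.35 and the lid gene psmd7, named after its value was seen, by -0.33. In the splicing list 3 of 102 genes (2.94%) were lower by at least 0.32, a share near the background, led by lsm6 (-0.44). In the mitochondrial ribosome, mrpl54 was the only one of 51 genes at least 0.32 apart. The respiratory chain, with 28 of 82 higher and 20 lower, held none.

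Epidermis and keratin genes lay near the background and junction genes leaned down. Of 37 junction genes 20 were lower (54.1%, against 41.9% of all genes) and 6 higher, with 3 (8.11%) lower by at least 0.32. The claudin gene cldna, of tight junctions, read 7.58 with 3-OHBcP, 7.58 with BcP and 8.04 in control. The junctional adhesion molecule gene jam3b read 7.46 with 3-OHBcP, 7.46 with BcP and 7.84 in control on its brightest probe set, while its other kept one was equal at 6.24 on the 3 arrays. A further claudin gene, cldnf, read 6.95 with 3-OHBcP, 6.41 with BcP and 7.32 in control, and for this one the BcP array was the lowest. The highest member, cldng, was higher by 0.25 on its brightest probe set and differed by -0.02 and -0.15 on the other kept ones, so its direction is not settled. The claudin gene cldn23.1, outside the list and named after its value was seen, read 10.15 with 3-OHBcP, 9.93 with BcP and 10.55 in control. Of 40 epidermis and keratin genes 16 were lower and 11 higher, and anxa3b, a membrane-binding annexin gene, was the only one at least 0.32 apart (-0.49).

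Leukocyte markers had 8 of 17 members lower (47.1%, near the 41.9% of all genes) and 2 higher, with a median of 0. Past 0.32, 2 (11.8%) were lower, against 2.95% of all genes, and none was higher. The carboxypeptidase gene cpa5, of mast cells in zebrafish, read 6.26 with 3-OHBcP, 7.46 with BcP and 6.73 in control. The other was mpx, whose probe sets disagreed as given above. The scavenger receptor gene marco of macrophages differed by -0.32. The summed linear signal of 6 defining leukocyte markers was 10942 with 3-OHBcP and 11075 in control. Most of this sum is cd74a, equal at 13.22 on both arrays, so it says little about the other markers. Of those, ptprc differed by -0.23 and coro1a by -0.15, lcp1 was higher by 0.06 and lyz was equal. In the list of matrix proteases, ADAMs, TIMPs and serpins, 12 of 21 genes were lower (57.1%, against 41.9% of all genes) and 4 higher. Past 0.32, 2 (9.52%) were lower and 1 (4.76%), serpinh1b, was higher. The lower ones were timp2b, an inhibitor of matrix proteases, at -0.47, and adam17a at -0.54. The protease of adam17a sheds membrane-bound growth factors and cytokines, and its probe set read 5.57 with 3-OHBcP, near the filter level, and 6.12 in control.

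Of the growth factor lists, the insulin and Fgf lists leaned down by small amounts and the Bmp list did not. Of 17 insulin, Igf and mTOR genes 11 were lower (64.7%, against 41.9% of all genes) and 2 higher. The list median of -0.09 lay between -0.11 and 0 over the alternative settings. The ligand gene igf2a read 5.66 with 3-OHBcP, 5.43 with BcP and 6.02 in control, its paralog igf2b differed by -0.21 and the binding protein gene igfbp3 by -0.27 on its brightest probe set and -0.05 on its other kept one. The receptor substrate gene irs2a was one of the 2 higher members, at 0.24. In the Fgf, Eda and Egf list 9 of 14 genes were lower (64.3%), 5 were equal and none was higher, and none was at least 0.32 apart. In the Bmp, Tgf-beta and activin list 10 of 30 genes were lower (33.3%, against 41.9% of all genes) and 9 higher. Its median was 0, and none of its genes was at least 0.32 apart. Of 21 Hedgehog, Notch and ephrin genes 8 were higher and 9 lower, with a median of 0. Past 0.32, 3 (14.3%) were higher and none lower. The higher ones were the ephrin ligand gene efna2a (0.50), her9 (0.43), a Hairy-related repressor, and gli2b (0.35), a Hedgehog transcription factor. The lowest members were lfng (-0.25) and notch3 (-0.18). In the Wnt list none of 13 genes was at least 0.32 apart. The gene efna2a read 5.59 with 3-OHBcP, 5.55 with BcP and, under the filter level, 5.09 in control. The gene gli2b read 6.07 with 3-OHBcP, 6.10 with BcP and 5.72 in control, so that for both of these the compound arrays were close to each other. The gene her9 read 9.89 with 3-OHBcP, 9.28 with BcP and 9.47 in control. In the Sox list, 5 of 8 genes were lower and 3 higher. Its median was -0.10, and 0.03 with no level filter. Beside sox4a, sox11a differed from control by -0.30 and -0.24 in its kept probe sets. The higher ones were sox2 (0.11), sox4b (0.10), the paralog of sox4a, and sox9b (0.05).

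**Figure D4:**
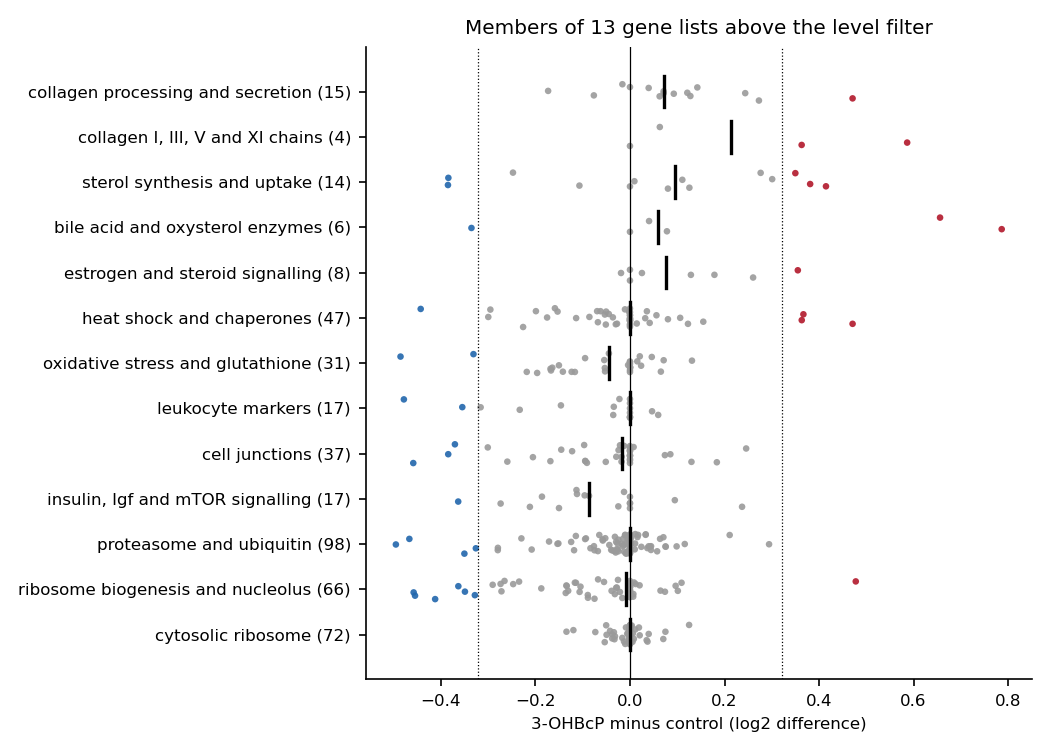
Log2 difference of 3-OHBcP minus control for the kept members of 13 gene lists (number of members in brackets), 1 point per gene, with the list median as a black bar and dotted lines at 0.32. Collagen processing has 11 of 15 members right of 0, sterol genes lie on both sides out to -0.39 and 0.41, and the 72 cytosolic ribosomal genes stay close to 0.

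Among lists with at least 20 kept members, the share of lower members exceeded the 41.9% of all genes most for matrix proteases (57.1%), oxidative stress (54.8%) and junctions (54.1%). The lysosome and proton pump list had the smallest share of higher members, 6.45%, with 16 of 31 lower and none at least 0.32 apart, although its median of -0.01 became 0.01 after quantile normalization. Its lowest members were the cathepsin genes ctsc (-0.26) and ctsba (-0.20) and lamp1b (-0.22), a membrane protein gene. The respiratory chain list had more higher than lower members, 28 and 20 of 82. The DNA repair (11 and 9), circadian clock (7 and 6), histone (18 and 16) and translation factor (18 and 17) lists did so narrowly. Past 0.32, the histone list had 2 members lower (3.17%) and the translation factor list 3 (4.84%), with none higher in either. The clock list had 1 higher and none lower. Of the genes at least 0.32 apart, 21 of the higher and 46 of the lower belonged to at least 1 list, and 32 and 109 belonged to none.

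**Figure D5:**
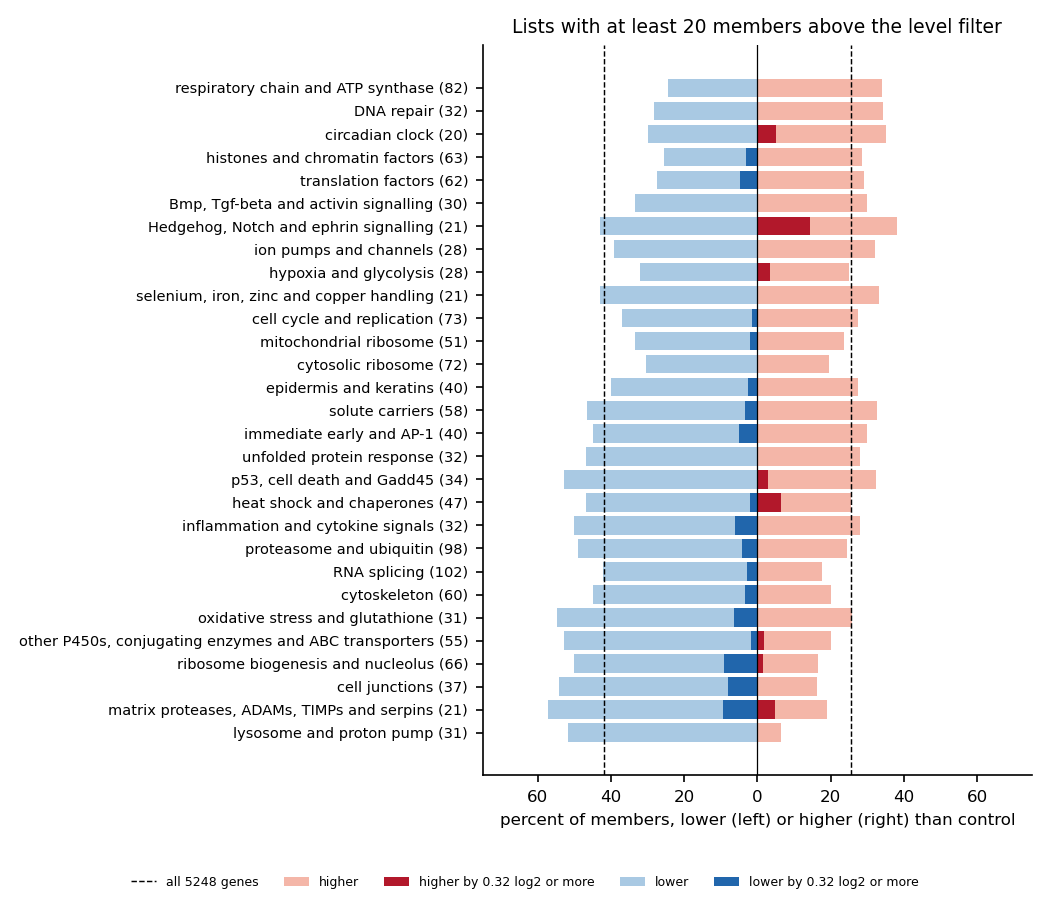
Percent of each list's kept members that were higher (right, light red) or lower (left, light blue) with 3-OHBcP than in control, with the part at least 0.32 apart in dark colour, for lists with at least 20 kept members (number in brackets). Dashed lines mark the shares over all 5248 genes, 25.4% higher and 41.9% lower, and members with equal values are not drawn.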

How the data were processed

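RNA of 3 scale samples was hybridised to Affymetrix Zebrafish Genome arrays, 1 per group. Per the labels' protocols, RNA was digested with DNase I (15 min), used if its integrity number exceeded 8.5, and 500 ng of it was labelled with a 3′ in vitro transcription kit. Each probe set has 1 value per array in the authors' deposited table, read here as log2 signal from its range; Affymetrix Expression Console is named in the submitters' processing notes. For its version, normalization and background correction, nothing is stated.

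The deposited log2 values were used unscaled. The platform annotation gave 1 symbol to 10795 probe sets, several to 135 and none to 4572. Symbols were updated through a RefSeq gene table of assembly GRCz12tu, where 10711 were found; it served for names alone. A gene was read by its brightest probe set by mean over the arrays, and kept at log2 5.35 or above. Differences were taken with Python 3.11.15, pandas 2.3.3 and numpy 2.4.6, and the steps were tested on simulated data. The number of arrays limits the precision.

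Named genes are the 10 highest and 10 lowest kept genes, those with every kept probe set at least 0.32 apart, the 3 highest and 3 lowest members of each of 51 lists, and a set of receptor, bone and Cyp genes at any level; others are said to be picked after their values were seen. The members, lists and rules were chosen with earlier results of these data known, and 57 symbols caught by spelling alone were taken out of lists by their role after values were seen. Alternatives were 7 planned settings (an offset of 32, centring, quantile normalization, no level filter, the filter at the 75th percentile, the mean over probe sets, dropping probe sets with several possible targets) and 1 added after seeing the data, which removes the trend with signal level in 20 bins.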

Additional observations from a re-analysis of the deposited data

How the results depend on the processing

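No paired analysis was possible because each group has 1 array. Of the 75 named genes at least 0.32 apart, 75 kept their sign under every setting that gave a value, and 38 also stayed at least 0.32 apart. Most of these genes were named as extremes on the same arrays, which the settings only rescale, refilter or average. A kept sign is therefore no support for a direction, and mpx, whose probe sets disagreed, is among those counted. Averaging over probe sets gave no value for genes such as cyp1c1 and arnt2, whose averaged level fell under the filter. An offset of 32 on the linear scale left 2 genes 1.5-fold higher and 1 lower, 20 higher by at least 0.32 and 59 lower, and 0 with every probe set lower by at least 0.32. After quantile normalization 3 genes were 1.5-fold lower and 1 had every probe set lower by at least 0.32, and this last count was also 1 with the trend with signal level removed. With no level filter 8 genes were 1.5-fold higher and 175 were higher by at least 0.32. The median for collagen I, III, V and XI was then 0.0501, against 0.21 in the reported setting. That for Sox factors was 0.0299, against -0.10, and that for Hox genes 0.0922, against -0.01. With the filter at the 75th percentile, 2 genes were 1.5-fold lower, 22 were higher by at least 0.32, 75 were lower by at least 0.32 and 1 had every probe set lower. The median for collagen I, III, V and XI was then 0.36. That for bile acid and oxysterol enzymes was 0.41, against 0.06 in the reported setting, and that for skeletal muscle -0.0437, against 0.11. Averaging all probe sets left 2 genes 1.5-fold higher. Dropping probe sets with several possible targets gave a collagen I, III, V and XI median of 0.0631, since both col1a1a probe sets are of that kind. Other causes were not tested. Of 51 lists, 12 had a median on the other side of 0 in some setting. Among them was the aryl hydrocarbon receptor list, at -0.05 in the reported setting and 0.02 with no level filter. Lists with a median of exactly 0 in the reported setting could not be counted this way. Of these, the heat shock and chaperone list had medians from -0.028 to 0.015 over the settings.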

Other observations

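Probe sets with no gene symbol or with several were left out of the comparison, and 1753 of them reached the level filter. Of these, 27 were higher by at least 0.32 on the log2 scale with 3-OHBcP and 57 lower by at least 0.32. The probe set Dr.18853.1.A1_at was the only one on the array's kept part 2-fold apart, at a log2 signal of 4.708 with 3-OHBcP, 7.203 with BcP and 6.204 in control. The highest was Dr.10800.1.A1_at, at 6.36 with 3-OHBcP, 5.71 with BcP and 5.56 in control. Both are without a gene name here.

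Among probe sets of named genes that were under the level filter, the lowest difference from control was -0.92. It belonged to the second probe set of the mitochondrial ribosomal gene mrps18b, at 4.80 with 3-OHBcP, 5.45 with BcP and 5.72 in control. The brightest mrps18b probe set, above the filter, differed by -0.25. The cell cycle gene ccnd1, for cyclin D1, differed by -0.36 and -0.22 on its kept probe sets, and eif4e1c, a cap-binding translation factor gene, by -0.38 and -0.23. The DNA damage sensor gene ddb1 was higher by 0.17 and 0.45.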
